A study of Mus musculus with 3 samples.

Results

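Male germ cells carry a second set of several genes of the respiratory chain, and the 10 genes described here are 5 such genes with their somatic partners. They are the cytochrome c genes Cycs and Cyct, the cytochrome c oxidase subunit genes Cox6b1 and Cox6b2, Cox8a and Cox8c, and Cox7b and Cox7b2, and the ADP/ATP carrier genes Slc25a4 and Slc25a31, where the testis isoform stands second in each pair. All 10 symbols were found among the 31053 genes of the deposited matrices, each on 1 row. They were followed from spermatogonia to spermatids by single-cell RNA-seq of testicular cells, with 1 library for each of 3 genotypes. The mice were C57BL/6 males, labelled as 8 weeks old, and were wild type (WT), GRTH-KO (KO), which lack Ddx25, the gene of the testis RNA helicase GRTH, or GRTH-KI (KI), which carry the human GRTH gene with a point mutation. The sample labels and the study's methods differ in the number and age of the mice behind a library. 

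Cytochrome c moves electrons from complex III to cytochrome c oxidase (complex IV) in the space between the mitochondrial membranes, and once released into the cytosol it binds Apaf1 and starts the caspase cascade. Cox6b, Cox7b and Cox8 are small nuclear-encoded subunits of complex IV, and the ADP/ATP carrier exchanges ADP from the cytosol for ATP made in the matrix. Cyct encodes the cytochrome c of meiotic and postmeiotic germ cells and sperm, and Slc25a31 (ANT4) encodes the carrier that male germ cells use and without which meiosis stops. Slc25a4 encodes ANT1, the carrier of heart and skeletal muscle, and its X-linked relative Slc25a5 encodes ANT2, the carrier of dividing cells.

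The 10 genes lie on 8 autosomes and the X chromosome of GRCm38, and no pair is a tandem copy. Cyct lies at chr2:76353942-76360450 (minus strand), Slc25a31 at chr3:40708855-40726096 (plus), Cox7b2 at chr5:71442824-71548205 (minus), Cox6b2 at chr7:4751792-4753094 (minus) and Cox8c at chr12:102899316-102900526 (plus). Their partners are Cycs at chr6:50562563-50566538 (minus), Cox6b1 at chr7:30616861-30626151 (minus), Cox8a at chr19:7215153-7217616 (minus), Slc25a4 at chr8:46206797-46211284 (minus) and Cox7b at chrX:106015700-106022450 (plus), so that Cox7b is the only X-linked member. Transcripts of a pair share exact runs of at most 14 bases, so reads of an isoform and its partner can be told apart. Cycs shares a run of 529 bases with Gm10053 on chromosome 19, which held 0, 1 and 2 UMIs in spermatogonia-like cells of WT, KO and KI. Cycs counts are uncertain to the extent that reads matched both genes, which the UMIs of Gm10053 do not measure.

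Promoters of 4 members are printed because their levels took unlike courses from spermatogonia-like to pachytene-like cells. They are Cycs, which fell, Cyct and Cox7b2, which rose, and Slc25a31, which was already high in spermatogonia-like cells. Each is the RefSeq promoter on GRCm38.p6 from 250 bases before the start of transcription to 50 after it, 5′ to 3′ on the strand of the gene. Capitals mark matches, on either strand, to TGACGTCA (the CRE, in 1.79% of 32851 promoters of the same length), GCATGCG (NRF1 core, in 3.58%), TAACNG (MYB core, in 23.3%), TCCCGC (E2F core, in 20%) and GGGCGG (GC box, in 35.7%), and overlapping matches run together. Cycs lies at chr6:50566520-50566819 and Cyct at chr2:76360404-76360703, both on the minus strand. Cox7b2 lies at chr5:71548156-71548455 on the minus strand and Slc25a31 at chr3:40708621-40708920 on the plus strand.
Cycs: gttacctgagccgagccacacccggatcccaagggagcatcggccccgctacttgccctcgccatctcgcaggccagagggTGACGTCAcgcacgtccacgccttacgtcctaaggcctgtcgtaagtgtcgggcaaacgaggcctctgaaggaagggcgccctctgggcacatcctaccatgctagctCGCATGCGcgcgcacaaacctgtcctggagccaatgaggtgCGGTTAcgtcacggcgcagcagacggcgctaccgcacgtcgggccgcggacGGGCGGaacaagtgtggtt
Cyct: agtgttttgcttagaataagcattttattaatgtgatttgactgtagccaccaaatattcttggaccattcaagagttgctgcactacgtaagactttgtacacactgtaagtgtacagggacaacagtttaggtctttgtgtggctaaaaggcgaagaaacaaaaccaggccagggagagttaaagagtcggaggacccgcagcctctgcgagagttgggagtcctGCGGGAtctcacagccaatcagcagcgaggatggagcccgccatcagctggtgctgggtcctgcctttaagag
Cox7b2: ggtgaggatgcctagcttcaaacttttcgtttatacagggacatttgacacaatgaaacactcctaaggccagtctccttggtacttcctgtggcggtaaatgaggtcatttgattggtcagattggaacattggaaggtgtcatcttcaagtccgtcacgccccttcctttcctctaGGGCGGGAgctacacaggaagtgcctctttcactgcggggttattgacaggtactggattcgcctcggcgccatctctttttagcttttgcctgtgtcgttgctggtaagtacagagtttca
Slc25a31: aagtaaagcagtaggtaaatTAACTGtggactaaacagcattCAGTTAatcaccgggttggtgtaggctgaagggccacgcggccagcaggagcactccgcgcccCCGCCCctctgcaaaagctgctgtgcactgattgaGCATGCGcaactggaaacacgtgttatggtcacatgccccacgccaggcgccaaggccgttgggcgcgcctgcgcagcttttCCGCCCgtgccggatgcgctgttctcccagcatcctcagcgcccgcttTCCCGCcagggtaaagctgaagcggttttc

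The Cycs window held 1 CRE, 2 NRF1 cores, 1 MYB core and 1 GC box. That of Cyct held 1 E2F core and that of Cox7b2 held 1 E2F core overlapping 1 GC box. The Slc25a31 window held 1 NRF1 core, 2 MYB cores, 1 E2F core and 2 GC boxes. Of the other members with a promoter in the table, Cox6b2 and Slc25a4 held 1 GC box each, and Cox6b1, Cox8a and Cox7b held none of the motifs. CpG dinucleotides numbered 32 in Cycs, 25 in Slc25a4 and 22 in Slc25a31, and 8 in Cyct, 10 in Cox6b2 and 10 in Cox7b2, with a median of 7 over all promoters. Slc25a31 thus had more CpGs than the 3 other testis isoforms with a window, while the partner Cox7b, with 5, had fewer than any of these. A match is a description of the letters in the window, and its absence says nothing about a factor.

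Each UMI (unique molecular identifier) counts 1 captured transcript molecule whatever its length, so the 2 genes of a pair were compared on the same scale without a correction for length. A share is the UMIs of the testis isoform over those of both isoforms in all cells of a class, with a 95% Clopper-Pearson interval, and a level is in CPM (counts-per-million, a gene’s UMIs scaled by all UMIs of the class), with a 95% Poisson interval where given. These intervals cover counting error only. As each genotype has 1 library, differences between genotypes lack replicates and were not tested. A call means a change past 2-fold, and it is set beside the share of all tested genes that passed the same fold. Values in rows of 3 are in the order WT, KO and KI.

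The libraries held 82973909, 91388296 and 73150373 UMIs, of which 11525 cells were kept (5879, 4078 and 1568, with medians of 5091, 3930 and 11762 UMIs). Libraries shared 8 to 37 cell barcodes a pair. The cells formed 27 clusters, and a cluster was called X-like where the marker genes of that type had the highest mean score in it. Stages within the spermatogonia-like class were not separated. The 97 spermatogonia-like cells (37, 37 and 23) were cluster 25, led by Auts2, Ptma, Ncl and Dazl, in which 11 of the spermatogonial markers listed for naming were higher than elsewhere although none of those listed was among its 10 leading genes. Leptotene/zygotene-like cells numbered 107, 124 and 76, pachytene-like cells 563, 542 and 286, late spermatocyte-like cells 624, 868 and 215, and round spermatid-like cells 1357, 1352 and 482. Clustering was done without the members. Ddx25, the gene removed in KO, held 1042, 1 and 920 UMIs in round spermatid-like cells. Sertoli-like, Leydig-like, stromal-like and macrophage-like cells served for comparison.

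In spermatogonia-like cells the partners of cytochrome c and of 2 oxidase pairs held most of the UMIs, and by pachytene the testis isoforms held nearly all of them in all 5 pairs. Cyct took 21.1% (9.55 to 37.3), 33.9% (22.1 to 47.4) and 36.0% (27.2 to 45.5) of the cytochrome c UMIs in spermatogonia-like cells. In leptotene/zygotene-like cells it took 81.5%, 80.6% and 82.8%, and in pachytene-like cells 99.0%, 98.3% and 98.9%. The share thus crossed 50% between spermatogonia-like and leptotene/zygotene-like cells in each library.

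**Figure D1:**
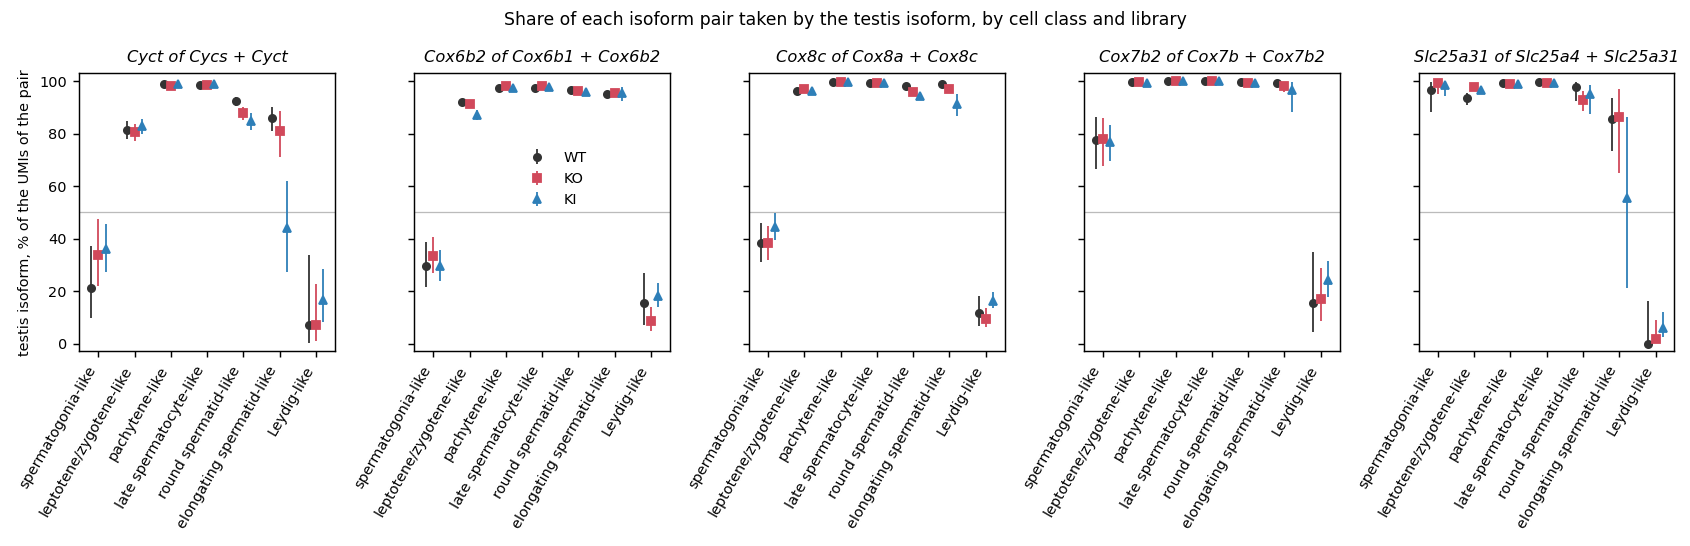
Share of the UMIs of each pair taken by the testis isoform (y axis, %), by cell class (x axis) in WT (circles), KO (squares) and KI (triangles), with 95% Clopper-Pearson intervals as bars and a line at 50%. Cyct, Cox6b2 and Cox8c lie below the line in spermatogonia-like cells and above 80% in the next 3 classes, whereas Cox7b2 and Slc25a31 start above it.

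Cox6b2 rose from 29.7%, 33.3% and 29.5% of its pair in spermatogonia-like cells to 92.0%, 91.4% and 87.3% in leptotene/zygotene-like and 97.4%, 98.0% and 97.5% in pachytene-like cells. Cox8c rose from 38.3%, 38.2% and 44.5% to 96.1%, 96.9% and 96.4%, and then to 99.6%, 99.5% and 99.6%. Cox7b2 already held 77.6% (66.6 to 86.4), 77.8% (67.8 to 85.9) and 77.0% (69.5 to 83.4) in spermatogonia-like cells and 99.3% to 99.8% at leptotene/zygotene. Slc25a31 stood apart from the other 4. It held 96.6%, 99.1% and 98.4% of the carrier pair in spermatogonia-like cells, where Slc25a4 was at 2, 1 and 2 UMIs, so no switch from Slc25a4 was seen in these germ cells. Somatic cells were not alike. In Leydig-like cells the partner held most UMIs of every pair, with testis isoform shares of 7.14%, 6.90% and 16.7% for Cyct and of 0%, 1.69% and 6.03% for Slc25a31, where the 0 stands for 0 of 21 UMIs in WT and protamine transcripts made up 3.73%, 0.0393% and 0.0202% of UMIs. In Sertoli-like cells, where protamine transcripts made up 3.06%, 0.708% and 1.93% of UMIs against 3.21%, 1.10% and 1.5% in empty barcodes, the shares were 59.7%, 54.4% and 43.1% for Cyct, 94.9%, 92.1% and 91.3% for Cox8c and 44.3%, 49.8% and 35.5% for Slc25a31. Cox8c was there at 3396, 2626 and 2307 CPM, above the 2843, 2222 and 1774 CPM of empty barcodes. Cox8c also held most of its pair in stromal-like and macrophage-like cells of WT and KO, with 55.6% to 72.2%, and not in KI, with 32% and 23.3%.

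Shares in the spermatogonia-like cells rest on few molecules: 8, 20 and 41 UMIs of Cyct, 35, 64 and 75 of Cox6b2, 67, 89 and 163 of Cox8c, 59, 70 and 117 of Cox7b2, and 57, 111 and 121 of Slc25a31. Sertoli-like cells, which should lack these transcripts, were set beside them, though their Cyct and Cox8c levels in CPM were above those of empty barcodes and so are no measure of free RNA alone. They held 0.853, 1.04 and 1.14 Cyct UMIs per cell against 0.216, 0.541 and 1.78 in spermatogonia-like cells, at median depths of 1335, 1580 and 1386 against 7226, 8532 and 19260 UMIs. Cox8c was at 11.9, 11.1 and 14.2 UMIs per Sertoli-like cell against 1.81, 2.41 and 7.09 per spermatogonia-like cell. Leydig-like, stromal-like and macrophage-like cells held less, at 0.727 to 4.70 Cox8c UMIs per cell. Of the 12 spermatogonia-like values of Cyct, Cox6b2, Cox8c and Cox7b2 (4 genes in 3 libraries), 10 were no higher than in the somatic class that held most, and the 2 others were Cyct and Cox7b2 in KI. Leydig-like cells, with medians of 6894, 10458.5 and 18945 UMIs, were closest in depth and held less of all 4. They held 0.0667, 0.10 and 0.50 Cyct UMIs per cell and 0.267, 0.50 and 2.05 of Cox7b2. Without the deepest spermatogonia-like cell, KI values of Cyct, Cox6b2 and Cox8c in that class (0.364, 0.909 and 0.682) were below those of all Leydig-like cells. The Leydig-like KI values also rest on few cells, and none was left out there. Of these 20 cells, 18 had no Cyct UMI, 1 held most of the 52 Cox6b2 UMIs and 2 held most of the 94 Cox8c UMIs. The comparison is thus uneven, and no order of the 2 classes is drawn from it. Protamine transcripts, which spermatogonia lack, gave a rough measure of free RNA. It came to an impossible 116% of UMIs in Leydig-like cells of WT and 129% in Sertoli-like cells of KI, so values based on it are rough throughout. In spermatogonia-like cells it put free RNA at 36.7%, 5.96% and 1.14% of UMIs. With the makeup of empty barcodes this would give 71.6, 11.1 and 1.92 CPM of Cyct against 28.8, 58.9 and 76.6 CPM observed, and 1044, 132 and 20.2 CPM of Cox8c against 241, 262 and 305 CPM. The 4 isoforms were thus below what free RNA would give in WT and above it in KO and KI, so the comparisons differ and expression of the 4 in these cells is not claimed. Slc25a31 was above both, at 205, 327 and 226 CPM against 14.1, 3.90 and 0.682 CPM from free RNA, and with 1.54, 3.0 and 5.26 UMIs per cell against at most 0.266, 0.50 and 0.481 in any somatic class. At leptotene/zygotene all 5 testis isoforms held more UMIs per cell than in every somatic class, Cyct with 4.0, 3.98 and 8.29 and Cox8c with 18.3, 18.4 and 32.9, in cells of greater depth (medians of 9582, 9020 and 18963 UMIs) than Sertoli-like cells. Scaled to depth this held for Cyct, at 299, 302 and 332 CPM against 243, 244 and 185 CPM in Sertoli-like cells, and for Slc25a31, and not for Cox8c, at 1368, 1398 and 1319 against 3396, 2626 and 2307 CPM, or Cox6b2, at 925, 771 and 610 against 1181, 1220 and 908 CPM. Cox7b2 was lower than in Sertoli-like cells in WT and KO, at 858 and 746 against 1036 and 918 CPM, and higher in KI, at 755 against 731 CPM. Protamine transcripts put free RNA at 6.92%, 4.31% and 2.32% of the leptotene/zygotene-like UMIs, and with free RNA subtracted on that basis the testis isoform still held most UMIs in 5 of 5 pairs in each library.

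Cell by cell, the KI values turned on 1 cell. Cytochrome c and the 3 oxidase pairs were summed in each spermatogonia-like cell, which gave 169, 243 and 396 testis isoform UMIs. In KI a single cell of 88921 UMIs, which was not among the likely doublets left out in one alternative, held 305 of the 396, among them 148 of the 163 Cox8c UMIs and 33 of the 41 Cyct UMIs, with a testis isoform share of 87.6%. Without the deepest cell of each library, KI shares fell to 11% (4.85 to 20.5) for Cyct, 11.1% (6.92 to 16.6) for Cox6b2, 7.25% (4.11 to 11.7) for Cox8c and 61.5% (49.8 to 72.3) for Cox7b2, and all 12 values per cell were then no higher than in the somatic class with most. WT and KO shares hardly moved, to 38.2% and 38.5% for Cox8c. Slc25a31 kept 98.1%, 99.0% and 99.1% of its pair without these cells and stayed above every somatic class, with 1.44, 2.83 and 4.82 UMIs per cell.

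**Figure D2:**
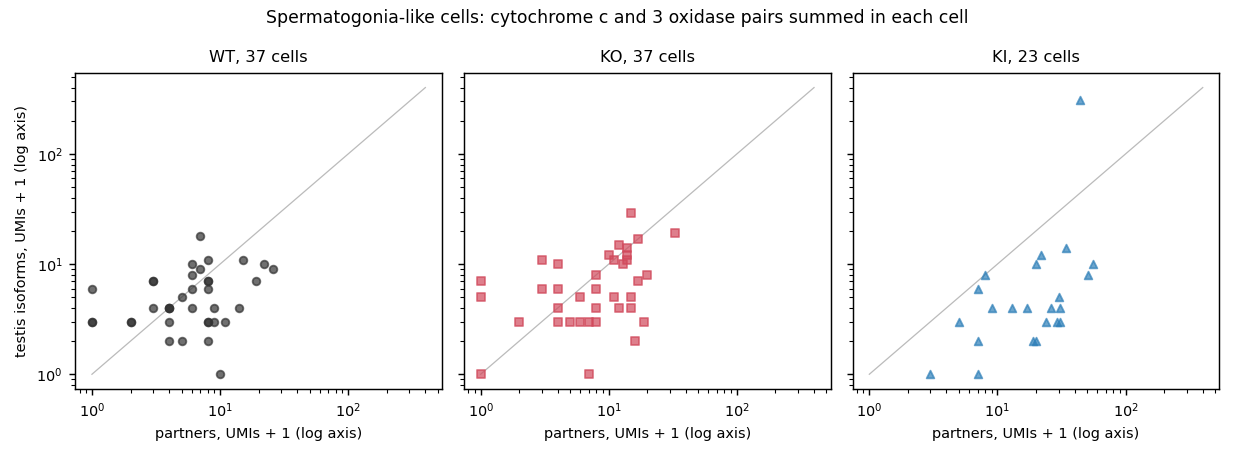
UMIs of the testis isoforms (y axis) against UMIs of their partners (x axis), summed over cytochrome c and 3 oxidase pairs in each spermatogonia-like cell, with 1 added and both axes logarithmic, in WT, KO and KI. The grey line marks equal counts, and the KI cell of 88921 UMIs stands far above it with 305 testis isoform UMIs while the other 22 KI cells lie on or below it.

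Single spermatogonia-like cells had few UMIs of any 1 pair. Cyct was without a UMI in 31 of 37, 23 of 37 and 16 of 23 of them, and among cells with at least 5 UMIs of the Cox6b1 and Cox6b2 pair 3 of 11, 8 of 14 and 4 of 15 had testis isoform shares from 25% to 75%. Summed over the 4 pairs, so that a mixed cell may hold 1 isoform of one pair and the other of another, 22 of 32, 25 of 34 and 7 of 22 cells with at least 5 UMIs lay in that range, and 1, 2 and 1 lay above 75%. At leptotene/zygotene, over the same sum, 74 of 88, 81 of 101 and 50 of 72 cells lay above 75%. Slc25a31, in contrast, was without a UMI in only 8 of 37, 8 of 37 and 2 of 23 spermatogonia-like cells, and was found in 15.3%, 22.1% and 16.5% of the shallower Sertoli-like cells. Mixed cells were least frequent in KI, where the protamine measure of free RNA was lowest and cells were deepest (medians of 7226, 8532 and 19260 UMIs). Between WT and KO they did not follow the measure, with 22 of 32 cells at 36.7% and 25 of 34 at 5.96%. The parts of free RNA and depth in the result were not tested.

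In CPM, the switch in the cytochrome c and oxidase pairs had 2 sides between spermatogonia-like and pachytene-like cells. The testis isoforms rose and their partners fell. For the step to leptotene/zygotene no share of all genes and no other scaling was taken. From spermatogonia-like to leptotene/zygotene-like to pachytene-like cells, Cyct went from 28.8, 58.9 and 76.6 CPM to 299, 302 and 332 and then to 384, 387 and 403 CPM. Over the same classes Cycs went from 108, 115 and 136 CPM to 67.7, 72.9 and 69.0 and then to 4.01, 6.74 and 4.34 CPM. The leptotene/zygotene levels of Cyct came from few cells: 12 of 107, 10 of 124 and 8 of 76 cells held most of its UMIs, and 46, 57 and 21 cells held none. Among cells with at least 5 cytochrome c UMIs, 8 of 35, 7 of 34 and 5 of 32 had Cyct shares from 25% to 75% and 25, 24 and 24 lay above 75%. Thinned to 2000 UMIs (106 of 107, 124 of 124 and 75 of 76 cells were deep enough), 29.2%, 25% and 32.0% of the cells had a Cyct UMI and 0.943%, 2.42% and 2.67% had a UMI of both genes, against 25.8%, 27.1% and 32.3% and 7.58%, 8.33% and 12.9% of the 66, 96 and 31 Sertoli-like cells deep enough. The share of cells with a Cyct UMI was not above that of Sertoli-like cells beyond counting error, whereas free RNA at the protamine share would give 13.5, 7.98 and 3.93 CPM of Cyct in the leptotene/zygotene-like sums, far below the levels observed.

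**Figure D3:**
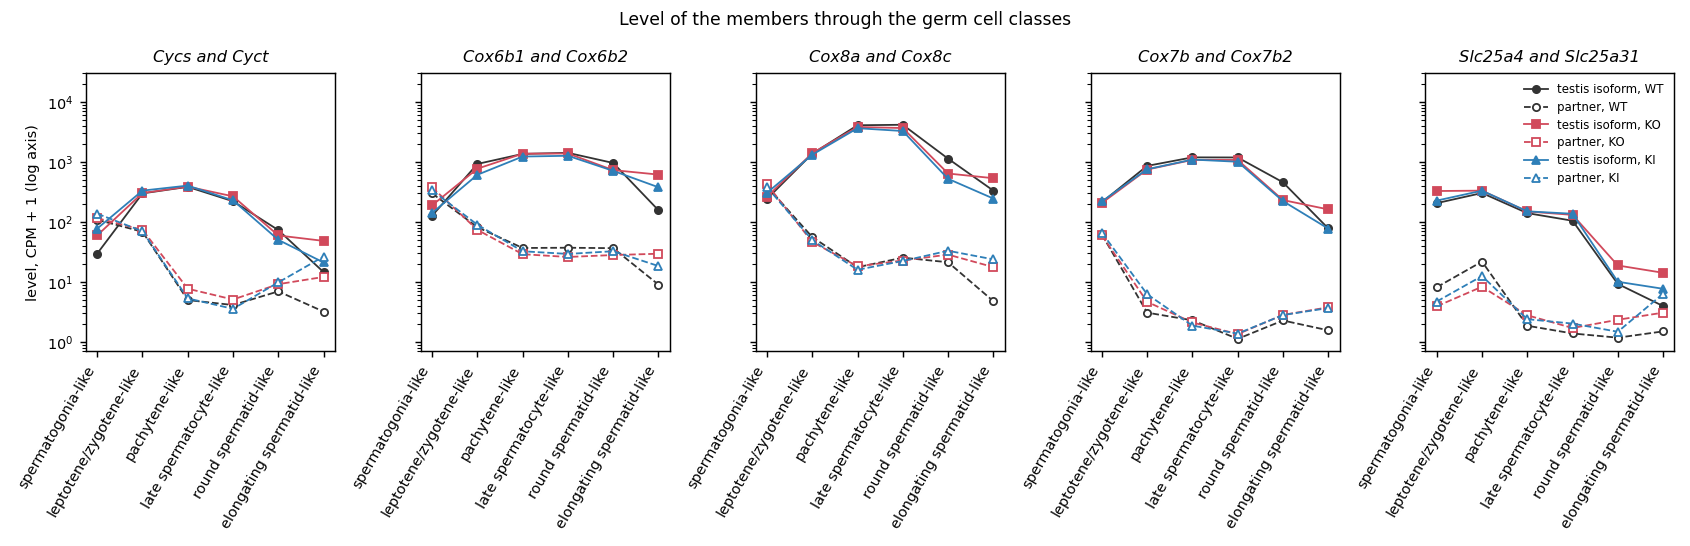
Level (y axis, CPM with 1 added, logarithmic) of the testis isoform (filled, solid) and its partner (open, dashed) of each pair through 6 germ cell classes (x axis) in WT (circles), KO (squares) and KI (triangles). Testis isoforms of cytochrome c and the oxidase peak at pachytene or late spermatocytes, and partners are low from pachytene on. Slc25a31 is highest at leptotene/zygotene, in KO at 332 CPM against 327 CPM in spermatogonia-like cells.

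Among the oxidase pairs, Cox8c became the most abundant member. It reached 1368, 1398 and 1319 CPM at leptotene/zygotene and 4081, 3818 and 3645 CPM in pachytene-like cells, where Cox8a had fallen from 388, 424 and 379 CPM in spermatogonia-like cells to 16.6, 17.3 and 15 CPM. At leptotene/zygotene 12 of 107, 10 of 124 and 7 of 76 cells held most of the Cox8c UMIs, and 14, 13 and 8 cells most of those of Cox6b2. Cox6b2 reached 1360, 1372 and 1228 CPM and Cox7b2 1191, 1080 and 1093 CPM at pachytene. Their partners differed in timing. Cox7b, on the X chromosome, was at 61.1, 58.9 and 65.4 CPM in spermatogonia-like cells and already at 2.09, 3.68 and 5.27 CPM at leptotene/zygotene, while the autosomal Cox6b1 went from 298, 377 and 335 CPM to 80.9, 72.9 and 89.0 and the autosomal Cox8a to 55.1, 45.4 and 49.0 CPM. In pachytene-like cells all 5 partners were below their level in empty barcodes of the same library, Cycs at 11.3, 13.9 and 12.5 CPM and Cox6b1 at 48.8, 40.9 and 41.3 CPM there, and above what free RNA at the protamine share (9.5%, 1.86% and 0.557% of UMIs) would give, which was 1.07, 0.258 and 0.0698 CPM of Cycs and 4.63, 0.759 and 0.230 CPM of Cox6b1. The testis isoforms were above their level in empty barcodes, Cyct against 195, 185 and 169 CPM and Cox8c against 2843, 2222 and 1774 CPM, except Cox6b2 in WT and KO (1509 and 1439 CPM in empty barcodes).

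Slc25a31 followed another course. It was at 205, 327 and 226 CPM in spermatogonia-like cells, at 303, 332 and 331 CPM at leptotene/zygotene, at 140, 149 and 149 CPM at pachytene, at 104, 130 and 136 CPM in late spermatocyte-like cells and at 8.29, 17.9 and 9.11 CPM in round spermatid-like cells. In CPM its highest class was therefore an earlier one than that of the other testis isoforms. The order of spermatogonia-like and pachytene-like cells depended on the scaling, as given below. The ranges over the 3 libraries of spermatogonia-like and leptotene/zygotene-like cells overlapped, while leptotene/zygotene lay above pachytene and pachytene above late spermatocytes without overlap. Slc25a4 stayed at or below 20.9 CPM in all these classes and Slc25a5 was at 6, 7 and 2 UMIs in spermatogonia-like cells, against 161, 285 and 262 CPM of Slc25a4 in Leydig-like cells.

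Between spermatogonia-like and pachytene-like cells, 9 of the 10 members reached 10 CPM and were compared. Cyct, Cox6b2, Cox8c and Cox7b2 were past 2-fold higher in each library, with log2 ratios for Cyct of 3.69, 2.70 and 2.38 and for Cox8c of 4.08, 3.86 and 3.58. Of all genes tested, 23.6% in WT, 23.5% in KO and 24.4% in KI were past 2-fold higher. Cycs, Cox6b1, Cox8a and Cox7b were past 2-fold lower in each library, with log2 ratios from −5.14 (Cox7b in KI) to −3.02 (Cox6b1 in WT), where 44.2%, 43.3% and 43.0% of all genes were. Cycs and Cox7b reached the minimum mean of 10 CPM only through spermatogonia-like cells, so that they could be compared only if lower at pachytene. The single deep cell named above raised the KI levels in spermatogonia-like cells and so lowered these ratios: without it Cyct was at 17.9 CPM and Cox8c at 33.6 CPM there. Slc25a31 had ratios of −0.55, −1.13 and −0.59, with medians over all genes of −0.70, −0.65 and −0.63. With TMM size factors, which were 2.15, 2.11 and 2.18 for spermatogonia-like and 0.804, 0.723 and 0.807 for pachytene-like sums, its ratios became 0.86, 0.40 and 0.83, so no direction is given for it, while the other 8 kept theirs.

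Counts for the other genes of these complexes depended on the scaling. Of 12 tested further subunits of cytochrome c oxidase, 1, 0 and 1 were past 2-fold higher and 2, 4 and 4 past 2-fold lower at pachytene than in spermatogonia-like cells, with median log2 ratios of 0.22, −0.11 and −0.01, beside 23.6%, 23.5% and 24.4% of all genes higher and 44.2%, 43.3% and 43.0% lower. With TMM size factors, chosen for these lists after seeing the data, 7 of the 12 were higher and 1 lower in each library, with medians of 1.64, 1.43 and 1.43, and the shares of all genes became 44.2%, 47.1% and 45.5% higher and 23.2%, 21.5% and 23.4% lower. Cox4i1, the largest nuclear-encoded subunit, had ratios of 0.25, 0.09 and 0.01 (1.67, 1.63 and 1.45 with TMM), and Ndufa4, a subunit first assigned to complex I, ratios of −4.44, −4.59 and −4.77 (−3.04, −3.08 and −3.35 with TMM). Of 10 genes of complex III, which passes electrons to cytochrome c, 3, 1 and 1 were higher and 3, 3 and 3 lower, and with TMM 6 were higher and 0 lower in each library. Cyc1, its cytochrome c1 subunit, had ratios of −1.61, −2.07 and −2.10 (−0.20, −0.54 and −0.67 with TMM), and Uqcrq of 2.13, 1.64 and 1.89. The outer membrane channel gene Vdac2 had ratios of 2.01, 1.64 and 2.27 and the phosphate carrier gene Slc25a3 of −1.48, −1.66 and −1.65 (−0.06, −0.12 and −0.22 with TMM).

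Of 5 listed genes for partners of cytochrome c in apoptosis and maturation, Apaf1, Bax and Hccs were tested, and these 3 were past 2-fold lower at pachytene in each library, as were 44.2%, 43.3% and 43.0% of all genes, and they remained so with TMM. All 3 reached the minimum mean through their level in spermatogonia-like cells, so the count of 3 is a description. Bax, whose product opens the outer mitochondrial membrane, fell from 194, 218 and 247 CPM to 5.06, 4.10 and 5.16 CPM. Hccs, which attaches haem to cytochrome c, fell from 24, 28 and 38 UMIs in spermatogonia-like cells to 2, 2 and 1 in the far deeper pachytene-like sums. Bak1, which acts beside Bax, had 0 UMIs in spermatogonia-like cells of each library, which allows up to 13.3, 10.9 and 6.9 CPM by the Poisson interval, and 96, 131 and 100 UMIs (8.37, 7.36 and 5.86 CPM) in pachytene-like cells. A difference was thus not detectable at this depth in any library on its own, and the libraries were not pooled. The caspase gene Casp9 was at 10.8, 11.8 and 11.2 CPM and then 5.58, 5.67 and 6.16 CPM, and like Bak1 lay under the minimum level for the comparison. Among germ cell isoforms of glycolysis, Ldhc held 89.5%, 87.6% and 88.0% of its pair with Ldha in spermatogonia-like cells, but at 4.38, 6.86 and 9.91 UMIs per cell against 21.8, 27.2 and 38.9 in Sertoli-like cells it was lower per cell than in these somatic cells. Gapdhs held 41.2%, 9.27% and 3.33% of its pair with Gapdh. Of the other reference pairs, Pgk2 held 31, 6 and 4 UMIs against 5, 11 and 14 of Pgk1, and Pdha2 held 9, 14 and 28 against 2, 5 and 3 of Pdha1. A testis isoform with most UMIs of its pair in these cells was thus not particular to the members. The order of Gapdhs, a spermatid gene, over the libraries was that of the protamine estimate of free RNA above.

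From pachytene-like to round spermatid-like cells, Cyct, Cox8c, Cox7b2 and Slc25a31 were past 2-fold lower in each library among 7 members tested. The shares of all genes past 2-fold lower were 43.9%, 40.9% and 40.8%. Log2 ratios were −2.39, −2.70 and −3.0 for Cyct, −1.85, −2.57 and −2.80 for Cox8c, −1.38, −2.22 and −2.30 for Cox7b2 and −3.92, −2.99 and −3.90 for Slc25a31, which in WT and KI reached the minimum mean only through pachytene-like cells. Cox6b2 had ratios of −0.50, −0.91 and −0.79, none past 2-fold, beside medians over all genes of −0.66, −0.49 and −0.47. Of the partners, Cox8a had ratios of 0.27, 0.65 and 1.05 and was past 2-fold higher in KI, where 32.5% of all genes were, at levels below those of empty barcodes. In WT, Cox7b2 came to −1.0 with TMM size factors and to −0.53 at a clustering resolution of 0.3, where Cox8c came to −0.90. In round spermatid-like cells the testis isoforms still held most of the UMIs: Cyct still held 92.4% (90.4 to 94.0), 87.7% (85.0 to 90.1) and 84.8% (81.3 to 87.9) of its pair, and Cox7b2 99.7%, 99.2% and 99.2%. In round spermatid-like cells all 5 testis isoforms were below their level in empty barcodes in each library, Cox6b2 at 960, 730 and 710 CPM against 1509, 1439 and 1203 CPM. Elongating spermatid-like cells were not compared between libraries as a class, because 2 of their 4 clusters, 8 and 9, held 578 and 574 WT cells but 5 and 1 KO cells and 1 KI cell each. Cyct held 215, 68 and 15 UMIs in that class against 35, 16 and 19 of Cycs, so in KI it did not hold most of its pair.

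Between genotypes, none of the 7 members tested passed 2-fold in pachytene-like cells of KO or KI, where 1.75% and 2.63% of all genes did, or in late spermatocyte-like cells, where 1.87% and 2.12% did. Over both mutants the members' ratios ran from −0.34 to 0.10 at pachytene. The switch itself was thus seen in all 3 libraries, with pachytene shares that differed by at most 1 percentage point in each pair. Depth allowed this to be read closely, since the pachytene-like sums held 4401, 6891 and 6867 Cyct UMIs.

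In round spermatid-like cells the levels of Cox8c and Cox7b2 were lower in both mutant libraries than in WT. Cox8c was at 1133, 640 and 523 CPM, with log2 ratios of −0.82 (−0.87 to −0.78) in KO and −1.12 (−1.17 to −1.07) in KI. Cox7b2 was at 457, 231 and 222 CPM, with ratios of −0.98 (−1.05 to −0.91) and −1.04 (−1.12 to −0.96). Both passed 2-fold in KI, where 2.81% of all genes did in that direction, and neither in KO, where 2.77% did. In KI neither passed 2-fold at a clustering resolution of 0.3 (−0.92 for Cox8c and −0.75 for Cox7b2), and Cox7b2 did not without barcodes shared by libraries (−0.97). Both levels lay below those of empty barcodes, which held 2843, 2222 and 1774 CPM of Cox8c and 1002, 781 and 632 CPM of Cox7b2. Cox8c was at 9.07, 4.90 and 8.93 UMIs per round spermatid-like cell, under the 11.9, 11.1 and 14.2 of Sertoli-like cells. Since spermatids make protamines these cannot measure free RNA there, so the part of free RNA in these differences was not tested. Cyct was at 72.3, 58.7 and 49.4 CPM (ratios −0.30 and −0.54) and Cox6b2 at 960, 730 and 710 CPM (−0.39 and −0.44), against medians over all genes of 0.18 in both mutants. TMM took the ratios of Cox8c to −1.09 and −1.39 and those of Cox7b2 to −1.25 and −1.31.

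Slc25a31 held 90, 185 and 75 UMIs. Its log2 ratio in KO was 1.02 (0.69 to 1.36), where 5.66% of all genes were past 2-fold higher, but it reached the minimum mean of 10 CPM only through its higher level in KO, so this is given as a value and not as a result. In KI (ratio 0.12) it was under the minimum and was not among the 6 members tested, of which none was past 2-fold higher where 5.40% of all genes were. The KO ratio was under 2-fold in 10 of 14 alternatives, and was 0.24 where cells were called by their UMI total only. Its levels of 8.29, 17.9 and 9.11 CPM lay below the 38.3, 65.4 and 60.1 CPM of empty barcodes, and the part of free RNA in the difference was not tested.

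The round spermatid-like class holds unlike cells in the 3 libraries, since cluster 22 had 4, 147 and 46 cells and cluster 19 had 200, 58 and 19. Cluster 13, with 248, 155 and 77 cells, was taken on its own, a choice made after seeing the data. Of the 14 germ cell clusters with at least 50 cells per library, it had the lowest ratios of Cox8c and of Cox7b2 in both mutants. There Cox8c was at 1547, 591 and 614 CPM, and Cox7b2 at 702, 267 and 307 CPM. The log2 ratios were −1.39 (−1.46 to −1.31) and −1.33 (−1.40 to −1.26) for Cox8c, and −1.39 (−1.50 to −1.28) and −1.19 (−1.29 to −1.09) for Cox7b2. These were the 2 members of 6 tested that passed 2-fold in each mutant, where 4.48% (KO) and 5.74% (KI) of all genes were past 2-fold lower and 7.22% and 8.05% past 2-fold higher. Cyct had ratios of −0.62 and −0.71 and Cox6b2 of −0.47 and −0.51. Per cell, Cox8c was at 27.8, 12.1 and 27.1 UMIs in cluster 13 against 11.9, 11.1 and 14.2 in Sertoli-like cells, so the KO value was close to theirs and the 2 others above it, while the levels of both genes in CPM were below those of empty barcodes in each library here too.

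**Figure D4:**
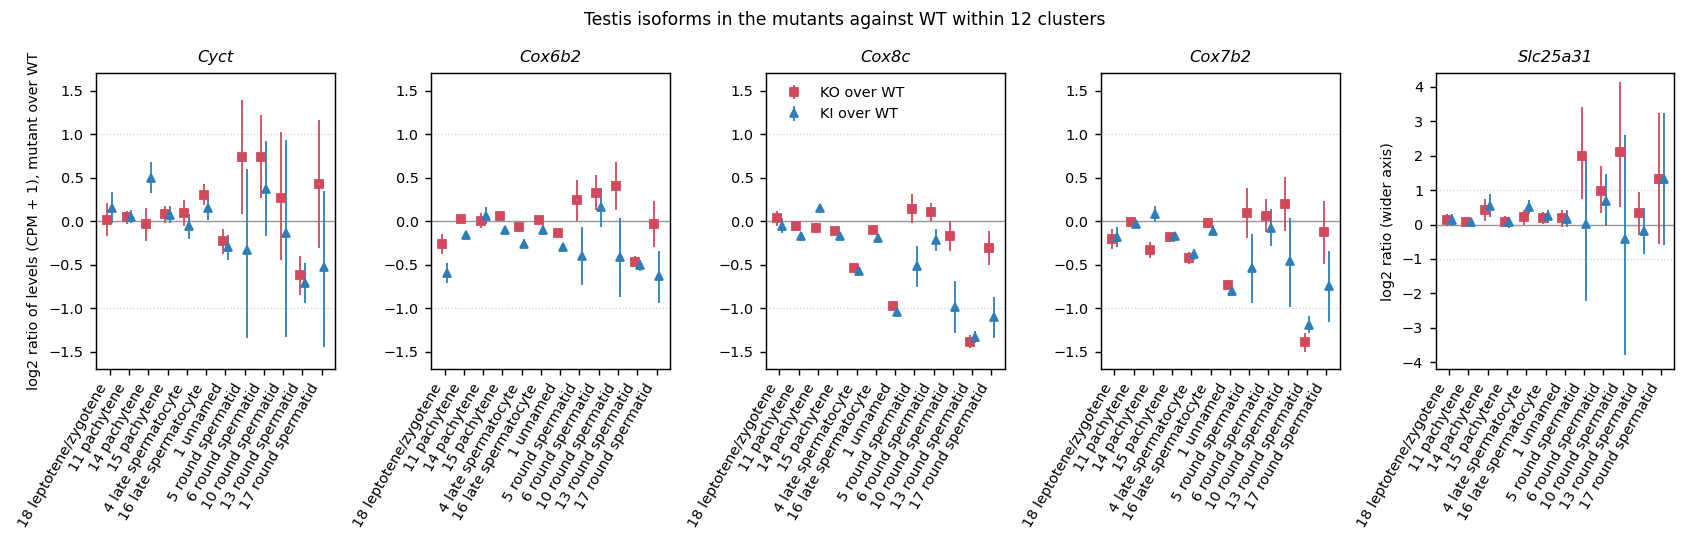
Log2 ratio of the level (CPM with 1 added) of each testis isoform in KO (squares) and KI (triangles) against WT (y axis) within 12 of the 14 germ cell clusters of at least 50 cells per library (x axis, grouped by class), with 95% intervals for counting error and dotted lines at 2-fold. The other clusters are left out. Cox8c and Cox7b2 lie near 0 in pachytene-like clusters and past 2-fold lower in cluster 13, and the Slc25a31 panel has a wider axis.

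Within clusters, the lower Cox8c was found in some late cells and not in others. In late spermatocyte-like cluster 4 its ratios were −0.54 and −0.58, in the unnamed cluster 1, whose cells scored highest for late spermatocyte markers, −0.98 and −1.04, and in late spermatocyte-like cluster 16 −0.10 and −0.19. In the round spermatid-like clusters 5, 6 and 10, which hold few UMIs per cell, the KO ratios were 0.14, 0.10 and −0.17 and the KI ratios −0.52, −0.22 and −0.98. Over 14 germ cell clusters with at least 50 cells in each library, Cox8c was lower than in WT in 10 for KO and 12 for KI, and Cox7b2 in 9 and 11. Past 2-fold lower were 1 and 3 for Cox8c and 1 and 1 for Cox7b2. Median log2 ratios were −0.10 and −0.37 for Cox8c and −0.07 and −0.18 for Cox7b2. Other members were also often lower, Cox6b1 in 9 and 9 and Cox6b2 in 5 and 10. The clusters share the same libraries and are not replicates, and no share over all genes was taken for these counts. Free RNA also held less Cox8c in the mutants, as the levels in empty barcodes show, and its part in these differences was not tested. In elongating spermatid-like cluster 3, which is not in the plot, Cox8c went the other way, at 309, 1275 and 636 CPM. Over the 14 clusters, KO ratios ran from −0.62 to 3.90 for Cyct and from −0.47 to 2.40 for Cox6b2. They ran from −1.39 to 2.04 for Cox8c and from −1.39 to 2.60 for Cox7b2. The upper ends lie beyond the plotted range.

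A pair of other subunits also had lower levels in the mutant spermatids. Cox4i1 was at 600, 155 and 117 CPM in cluster 13 (ratios −1.95 and −2.35) and Cox6c at 724, 214 and 252 CPM (−1.75 and −1.52), and in all round spermatid-like cells Cox4i1 had ratios of −1.30 and −1.93. These were the 2 of 11 tested further oxidase subunits that were past 2-fold lower, in each mutant and in both sets of cells, beside the 2.77% (KO) and 2.81% (KI) of all genes in round spermatid-like cells and the 4.48% and 5.74% in cluster 13 given above. In cluster 13 they too were below their levels in empty barcodes (1027, 680 and 642 CPM for Cox4i1). The mitochondrially encoded subunits went up in KO: mt-Co1 was at 73.5, 274 and 93.2 CPM in cluster 13, mt-Co2 at 52.4, 286 and 90.5 CPM and mt-Co3 at 75.7, 352 and 122 CPM. No subunit was past 2-fold higher in KI. In complex III only mt-Cytb, at 17.5, 116 and 23.5 CPM, passed 2-fold, in KO. Mitochondrial transcripts thus moved with the lower Cox8c past 2-fold in KO and not in KI, and their part in the result was not tested.

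Across the sums of 10 classes in 3 libraries (30 sums, 4490 genes), the gene whose level ran most like Cyct was Cox7b2, with a Pearson r of 0.966 on the log2 scale, followed by Adam2 at 0.95 and 4930444F02Rik at 0.949. Cox7b2 ran most like Cyct (0.966), Cox8c (0.948) and Larp7 (0.945). For Cox8c these were 1700026D11Rik (0.957), Rsph1 (0.951) and Nkapl (0.95), and for Cox6b2 Syngr4 (0.961), Gm11837 (0.960) and Rpl39l (0.954), which encodes a testis form of a ribosomal protein. Slc25a31 ran most like the mitotic and meiotic kinase gene Cdk1 (0.958), Topaz1 (0.955) and Stmn1 (0.951), and less like the other testis isoforms, with r of 0.776 for Cyct, 0.730 for Cox7b2, 0.555 for Cox8c and 0.484 for Cox6b2. The sums share libraries, depth and free RNA and are not independent, so these values are a description.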

How the data were processed

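Libraries of mouse testis cells from WT, KO and KI were analysed, with 1 sample each by the labels. The authors deposited raw UMI counts of 31053 genes in every barcode, made against mm10 with Cell Ranger (4 in the file headers, 2.1.1 in the submitters' processing notes), without normalization or cell calling. Cells were called with 3000 expected cells and a comparison with barcodes ranked 45000 to 90000 (at least 500 UMIs, false discovery rate 0.01), and kept with over 500 genes and under 10% mitochondrial UMIs. Libraries were integrated with Seurat 5.3.0 and sctransform 0.4.2 over 2000 genes, leaving out 54 listed genes, and clustered with leidenalg 0.10.2 on 100 principal components at resolution 1.0. The study's resolution of 0.3 gave no spermatogonia-like cluster and was an alternative. Clusters were named from marker lists (at least 3 markers, lead of 0.1). Doublets were not removed, and Scrublet marked 158, 4 and 14 cells and hardly worked in KO.

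UMIs were summed per class and library, scaled to CPM, and compared as log2 ratios with 1 CPM added, among genes with a mean of at least 10 CPM. TMM factors came from edgeR 4.0.16, other steps from scanpy 1.11.5 with pandas 2.3.3, scipy 1.17.1 and numpy 2.4.6 in Python 3.11.15. The ratio step was tested on simulated data, with the shift in totals from the known folds added back. The reported ratios receive no such correction, so the test does not cover shifts in composition. The genes named are the 10 members, the listed genes of their complexes, of apoptosis and of 4 germ cell reference pairs, Ddx25, and for each testis isoform the 3 genes of highest correlation. Barcodes shared by libraries were removed as an alternative (107 cells). The members and lists were chosen with earlier results of these data known. Gene positions are from GENCODE M21 and promoters from RefSeq (GRCm38.p6), which held 9 of the 10 members, without Cox8c.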

Additional observations from a re-analysis of the deposited data

How the results depend on the processing

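No paired analysis was possible because each genotype has 1 sample, and for the same reason no replicate could be left out. Of 337 counts of pairs or members recomputed under the alternatives of 27 results, 325 stayed within 1.5 times the value reported and 12 did not. Many counts had little room to move, such as pair counts at pachytene, where testis isoforms held nearly all UMIs. The same holds for genotype counts there, where no member passed 2-fold. The number that stayed is therefore no measure of how firm the results are. In spermatogonia-like cells of WT, pairs with most UMIs from the testis isoform went from 2 to 1 when free RNA was subtracted. In round spermatid-like cells of KO against WT, members past 2-fold went from 1 to 2 with cells called by UMI total only, with TMM size factors, and, chosen after seeing the data, with clusters 13, 19 and 22 only or cluster 13 only. The 1 was Slc25a31, which was higher, whereas in cluster 13 the 2 were Cox8c and Cox7b2, which were lower. The count went to 0 at resolution 0.3, without integration, with 10 CPM added and among genes of at least 50 CPM. In KI the count went from 2 to 0 at resolution 0.3 and to 1 without barcodes shared by libraries, an alternative chosen after seeing the data. In round spermatid-like against pachytene-like cells of WT it went from 4 to 2 at resolution 0.3. Causes were not tested.

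Of 1301 ratios of members under these alternatives, 1269 stayed on their side of 2-fold, 12 passed it and 19 no longer did. The other 1, which was past 2-fold as reported, reversed. It was Slc25a31 in KO between spermatogonia-like and pachytene-like cells (−1.13 to 0.40 with TMM size factors). Changes of sign in ratios under 2-fold were not counted as reversals, such as those of Slc25a31 in WT and KI with TMM given above. Cox8c in round spermatid-like cells ran from −1.44 to −0.63 in KO and from −1.39 to −0.92 in KI, and Cox7b2 from −1.53 to −0.61 and from −1.31 to −0.75. Of the germ cell classes followed from spermatogonia-like to round spermatid-like cells, the spermatogonia-like sums were the smallest, with 278100, 339523 and 534935 UMIs against 11471588 to 17807339 in pachytene-like cells, and somatic sums went down to 20006 UMIs (macrophage-like, WT). At resolution 0.3 that class gave no value.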
